A study of Mus musculus with 24 samples.

Results

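The Hox genes of the mouse colon were examined as a family, on arrays of the colon of mice with chemically induced colitis-associated tumorigenesis. The family was taken as every probe whose accession maps to a mouse symbol of the form Hox, then a, b, c or d, then a number, with antisense and host transcripts left out. This gave 39 genes with 46 probes, of 45616 gene names with 56605 probes on the array, and the brightest probe stood for each gene. The Hoxa cluster had 11 of these genes, the Hoxb cluster 10, the Hoxc cluster 9 and the Hoxd cluster 9. The study had 6 groups of 4 mice, each mouse on 1 array. They were male (M), female (F) and ovariectomized female (F(OVX)) mice, each on a low-fat (LFD) or high-fat (HFD) diet, and a group is named by its mice and its diet, as in M + LFD or F(OVX) + HFD. All were C57BL/6J mice, 7 weeks old at arrival. Males and intact females had a sham operation in place of ovariectomy. All groups, the LFD-fed ones included, were given 10 mg/kg of the carcinogen azoxymethane and 3 cycles of 1.5% dextran sulfate sodium, which injures the colonic epithelium, so the series holds no mouse without this treatment. The LFD had 10 kcal% fat and the HFD 45 kcal% fat. The mice on the arrays had been picked in the study for body weights close to the mean of their group. The methods give 5 animals per group for the arrays, and 4 per group are labelled. Per the methods, the RNA came from the distal colon, what was left of it after a piece had been fixed for histology.

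Hox genes encode homeodomain transcription factors that lie in 4 clusters, in the same order along each cluster as the paralog numbers they carry. Genes of low number are used in the front of the embryo and genes of high number towards the tail end, in the gut as along the body axis, and the adult gut keeps part of this code. Hoxb13, Hoxa13 and Hoxd13, of the last paralog group, are genes of the hindgut. Hox proteins bind DNA together with Pbx, Meis and Pknox cofactors, and Cdx factors, retinoic acid and the Polycomb and Trithorax chromatin proteins control the clusters.

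Signals are given on the log2 scale after quantile normalization over the 24 arrays. Each is compared only with the same gene on other arrays, because the signals of different probes are not on 1 scale. A signal counts as detected where the scanner software called its spot well above background. Between 40.5% and 61.9% of probes were so on each array, and no spot was saturated. Each of M, F and F(OVX) was on a slide of its own, and on each slide LFD lay in row 1 and HFD in row 2, so slide cannot be told apart from sex or surgery, nor row from diet. The labels tie no mouse to a cage or litter, so the p-values measure the spread between these arrays. The tissue was checked by 8 colon markers, 9 epithelial markers and 8 squamous markers. All colon and epithelial markers were well above background on every array. Of the 8 squamous markers, 7 were well above background on F + LFD replicate 3 (mean level 9.84) and 3 to 5 on the other arrays (mean level at most 6.64), and the keratin Krt5 was 14.61 on that array. The part of these cells in the results was not tested. Diet calls that changed without this array are given in the closing section, and the other results are not given without it. M + LFD replicates 1 and 2 stood apart from the other 22 arrays in many Hox genes, so results that rest on them are given with and without them. In whole tissue, fewer cells of a type and less RNA per cell cannot be told apart.

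Detection differed between the clusters. In the Hoxa cluster 8 of 11 genes were well above background on all 24 arrays and 10 on at least 23. In the Hoxb cluster 3 of 10 genes, Hoxb4, Hoxb7 and Hoxb9, were well above background on all 24. None of the 9 Hoxd genes was, and Hoxd1 was detected on no array. In the Hoxc cluster none of the 9 genes was detected on more than 5 arrays, 8 were detected on 2 or fewer, and Hoxc11 and Hoxc12 on none. Over the family, 11 genes were detected on all 24 arrays and 3 on none. A gene that was not well above background has only an upper bound here, and these counts do not show that it was absent.

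**Figure D1:**
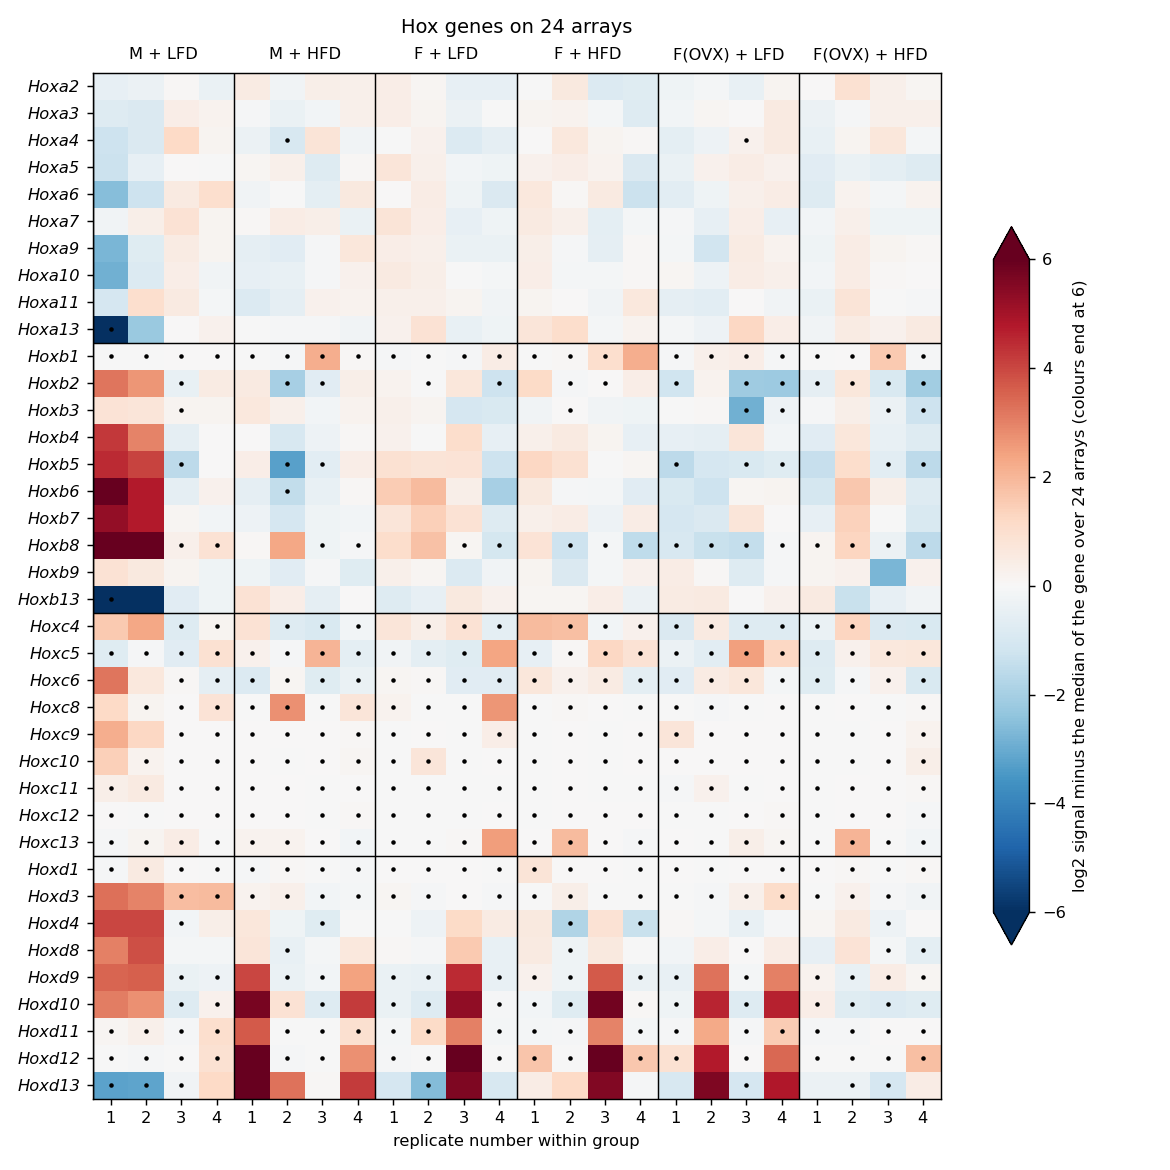
The log2 signal of 38 Hox genes (rows, by cluster) on each of the 24 arrays (columns, by group and replicate), minus the median of the gene over the 24 arrays, with a dot where the spot was not well above background. Hoxb4 to Hoxb8 are high and Hoxb13 and Hoxa13 low on M + LFD replicates 1 and 2, and Hoxd9 to Hoxd13 are high on a separate set of arrays from all groups but F(OVX) + HFD and M + LFD, with Hoxd9 and Hoxd10 high on M + LFD replicates 1 and 2 as well.

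Among the paralog group 13 genes, Hoxb13, a hindgut gene of the distal colon and rectum, had the widest range of the family. In M + LFD it was 2.18, 5.04, 13.24 and 13.66 on replicates 1 to 4, the first of these not well above background. In M + HFD it was 14.79, 14.32, 13.37 and 13.90. In F + LFD it was 13.12, 13.43, 14.50 and 14.16, and in F + HFD 14.04, 14.01, 14.32 and 13.57. In F(OVX) + LFD it was 14.39, 14.44, 13.90 and 14.14, and in F(OVX) + HFD 14.45, 12.58, 13.42 and 13.67. Thus 22 arrays lay between 12.58 and 14.79, and M + LFD replicates 1 and 2 lay more than 7 below the lowest of them. Hoxa13, its paralog at the end of the Hoxa cluster, was lowest on the same arrays. It was 2.00 (not well above background), 6.15, 8.37 and 8.63 in M + LFD, and 8.34, 8.28, 8.28 and 8.16 in M + HFD. It was 8.63, 9.21, 7.92 and 8.09 in F + LFD and 9.07, 9.43, 8.25 and 8.57 in F + HFD. In F(OVX) + LFD it was 8.22, 8.05, 9.62 and 8.75, and in F(OVX) + HFD 8.14, 8.87, 8.60 and 8.88. Hoxc13, the group 13 gene of hair and skin, was well above background on 1 array, F + LFD replicate 4, at 4.66, and its median over the 24 arrays was 2.17. Hoxd13, the last of the Hoxd cluster and a gene of limb, hindgut and genital development, varied within groups and is described with its cluster below.

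The 2 M + LFD arrays differed from the rest across the family, and in opposite directions along the Hoxb cluster. Of the 36 Hox genes detected on at least 1 array, 12 (33.3%) were higher on both arrays than on any of the other 22, against 4.94% of the 31752 genes detected on at least 1 array, and 4 (11.1%) were lower on both than on any of the other 22, against 2.64%. Since the arrays were singled out by Hox signals, this is a description without a test. The genes above the others were Hoxb2 to Hoxb9 of the Hoxb cluster, Hoxc9, and Hoxd3, Hoxd4 and Hoxd8. The genes below them were Hoxa10, Hoxa13, Hoxb13 and Hoxd13.

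**Figure D2:**
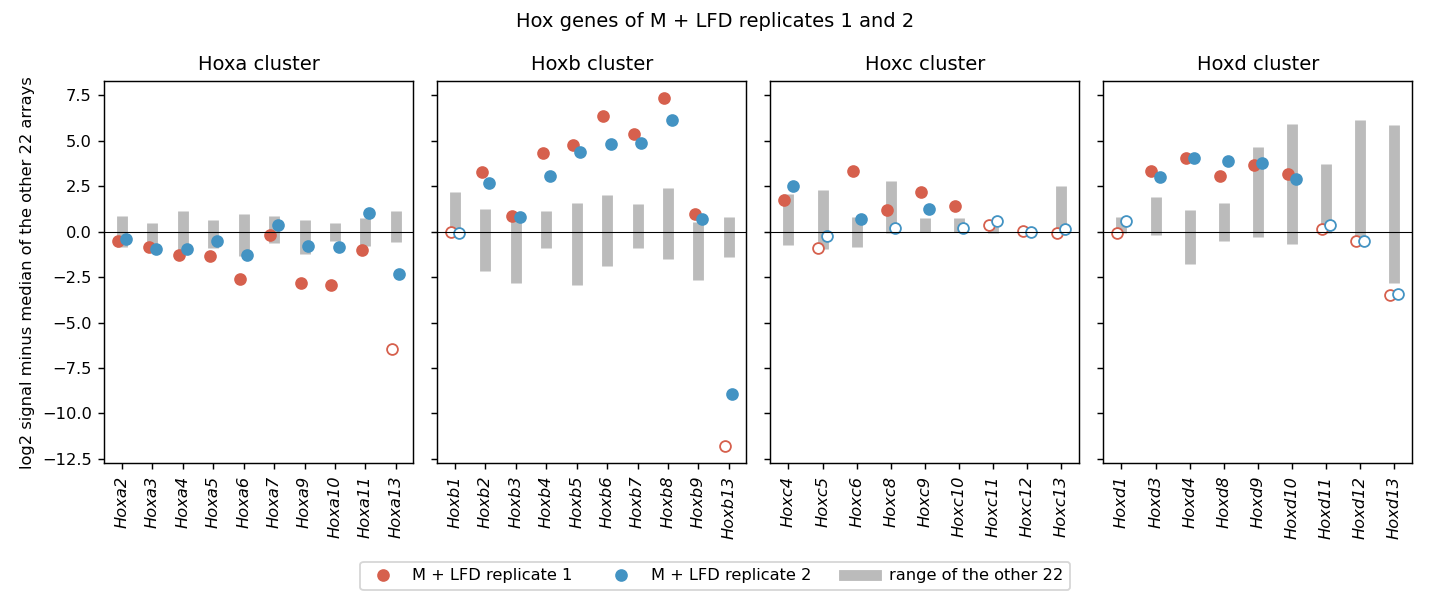
The log2 signal of 38 Hox genes on M + LFD replicates 1 and 2, minus the median of the other 22 arrays, by cluster and paralog number, with the range of the other 22 as a grey bar and open points where the spot was not well above background. Hoxb2 to Hoxb9 lie above the bar and Hoxb13 lies below it at −11.78 and −8.91.

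Within the Hoxb cluster, Hoxb5, Hoxb6 and Hoxb7 are given on every array because they were called in a diet comparison or were among the 5 genes of widest range. Hoxb5, a gene that the enteric nervous system needs, was 9.96, 9.53, 3.93 and 5.53 in M + LFD, the third not well above background, and between 2.25 and 6.73 on the other 20 arrays outside that group. In M + HFD it was 5.90, 2.25 (not well above background), 4.86 (not well above background) and 5.91, and in F + LFD 6.42, 6.26, 6.32 and 4.25. The F + HFD values were 6.73, 6.42, 5.45 and 5.62. In F(OVX) + LFD it was 3.94, 4.48, 4.59 and 4.78 and in F(OVX) + HFD 4.13, 6.54, 4.87 and 3.90, and 5 of these 8 values were not well above background. Hoxb6 was 12.71, 11.20, 5.91 and 6.72 in M + LFD and 5.92, 4.97 (not well above background), 6.01 and 6.55 in M + HFD. It was 7.96, 8.35, 6.79 and 4.47 in F + LFD and 7.03, 6.37, 6.36 and 5.77 in F + HFD. In F(OVX) + LFD it was 5.54, 5.24, 6.57 and 6.63, and in F(OVX) + HFD 5.41, 8.06, 6.83 and 5.68. Hoxb7 was 12.11, 11.61, 6.93 and 6.68 in M + LFD, 6.52, 5.85, 6.60 and 6.67 in M + HFD, 7.56, 8.28, 7.68 and 6.08 in F + LFD, and 7.15, 7.27, 6.55 and 7.27 in F + HFD. The F(OVX) + LFD values were 5.83, 5.96, 7.55 and 6.85, and those of F(OVX) + HFD 6.33, 8.23, 6.82 and 5.94. So for each of these genes the same 2 arrays stood above all others, and M + LFD replicates 3 and 4 lay within the range of the other groups. Hoxb8, detected on 7 arrays, lay furthest above the median of the other 22 (by 7.33 and 6.16), at 10.87 and 9.70 on the 2 arrays and at most 5.94 elsewhere. Hoxb4 was 10.78 and 9.50 there and at most 7.58 elsewhere. In the Hoxd cluster, Hoxd4 was 9.42 and 9.41 there and at most 6.54 elsewhere, and Hoxd8 was 8.70 and 9.54 there and at most 7.23 elsewhere.

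The deposited spots carry no gene sequence, and promoter sequence was printed for genes that moved together. Of the 39 Hox genes, 22 had 24 promoter windows in RefSeq's table for GRCm38.p6, taken here as the 250 bases before the start site. Hoxb13 had none. The motif TTTAT, the core of sites bound by Cdx factors, was searched on both strands, so that ATAAA counts too and overlapping matches count separately. It was found in 9 of 24 Hox windows (37.5%) and in 37.3% of all 32851 windows. Hoxb8 held 6 matches and Hoxd4 held 4, and 0.393% of all windows held 6 or more. The motif TGATNNAT, which Hox and Pbx proteins bind together, was in 4 of 24 Hox windows (16.7%) and 7.7% of all. The windows of Hoxb8 and Hoxd4, high on M + LFD replicates 1 and 2, are shown because they held the most matches, and that of Hoxd8, likewise high there, as one that held none. Of the other genes above the rest on both arrays, Hoxb4 held 0 matches and Hoxd3 held 1, so the motif was not shared by all that moved together. The letters are lower case, from 5′ to 3′ on the gene's strand, with TTTAT and ATAAA in capitals.
Hoxb8 (chr11:96281655-96281904, plus strand): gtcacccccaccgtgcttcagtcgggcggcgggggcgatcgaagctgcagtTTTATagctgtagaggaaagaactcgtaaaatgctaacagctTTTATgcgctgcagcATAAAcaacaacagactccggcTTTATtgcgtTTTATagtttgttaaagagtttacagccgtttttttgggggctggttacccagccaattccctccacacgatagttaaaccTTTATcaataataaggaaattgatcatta
Hoxd4 (chr2:74721728-74721977, plus strand): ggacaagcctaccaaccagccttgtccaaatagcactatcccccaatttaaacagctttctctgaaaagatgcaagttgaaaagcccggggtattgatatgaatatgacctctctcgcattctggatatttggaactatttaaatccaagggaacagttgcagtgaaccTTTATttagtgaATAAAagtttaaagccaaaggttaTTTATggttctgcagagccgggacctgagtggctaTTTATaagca
Hoxd8 (chr2:74704365-74704614, plus strand): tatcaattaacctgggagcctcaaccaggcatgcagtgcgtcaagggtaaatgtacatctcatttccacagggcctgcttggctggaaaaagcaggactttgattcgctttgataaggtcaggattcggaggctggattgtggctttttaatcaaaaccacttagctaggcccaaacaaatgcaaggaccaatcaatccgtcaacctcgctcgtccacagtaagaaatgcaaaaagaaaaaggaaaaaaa
A match is a description and not a bound site.

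Of 13 listed neighbours of the clusters, 8 were on the array, and 3 of them were lower on both M + LFD arrays than on any of the rest. Evx1, a homeobox gene beside Hoxa13, was 2.07 (not well above background) and 5.95 on the 2 M + LFD arrays, and on the rest it ran from 6.25 to 8.93. The long noncoding RNA Hottip, transcribed from the end of the Hoxa cluster beyond Hoxa13, was 3.31 and 3.20 (the latter not well above background) on these arrays and between 6.85 and 8.37 elsewhere. The antisense transcript Hoxa11os was 8.27 and 11.60 there and between 13.63 and 14.65 elsewhere. The other 5, Evx2, Hoxaas3, Hoxb5os, Hoxd3os1 and Haglr, were neither above nor below all of the rest on both. Evx2 was 7.40 and 5.17 there and between 2.02 and 8.18 elsewhere. Among the gut region factors, Osr2, a zinc finger gene of embryonic mesenchyme, was 12.83 and 12.70 on the 2 arrays, and at most 6.48 on the other 22. Cdx2, the intestinal homeobox gene that acts upstream of Hox genes, was 14.23 and 14.07 there, the highest of the 24 arrays. The mean of the 9 markers of enteric neurons and glia was 7.20 and 7.34 there, all 9 well above background, against 4.32 to 6.96 on the other 22. The mean of the 8 smooth muscle markers was 12.50 and 13.20, within the 11.36 to 14.16 of the other 22, and that of the 9 epithelial markers 14.88 and 15.00, against 14.22 to 14.91. The mean of the 7 fibroblast markers was 10.47 and 10.45, at the low end of the 24 arrays. The mean of the 8 colon markers was 14.24, the highest of the 24, and 13.84. The mean of the 8 immune markers was 8.07, the lowest of the 24, and 8.78. These arrays also had the highest shares of probes well above background, 61.9% and 60.9%. The part of these cells and of detection in the Hox signals was not tested.

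Genes at the 13 end of the Hoxd cluster varied together on another set of arrays. Hoxd12 was well above background on 6 arrays and at most 3.90 on the other 18. It was 8.07 on M + HFD replicate 1, 4.85 on M + HFD replicate 4, 8.56 on F + LFD replicate 3, 8.68 on F + HFD replicate 3, 6.83 on F(OVX) + LFD replicate 2 and 5.55 on F(OVX) + LFD replicate 4. On these arrays, in this order, Hoxd13 was 11.38, 9.49, 10.90, 10.84, 10.87 and 10.07, Hoxd10 was 8.48, 6.98, 8.13, 8.59, 7.37 and 7.42, and Hoxd9 was 6.63, 5.04, 7.10, 6.28, 5.86 and 5.63. The highest Hoxd13 on any other array was 8.53, on M + HFD replicate 2. The highest Hoxd10 on any other array was 5.86, on M + LFD replicate 1. Hoxd9 was 6.13 and 6.21 on M + LFD replicates 1 and 2, within its values on the 6 arrays. Hoxd11 was well above background on 4 arrays only, and on M + HFD replicate 4 it was 3.13 and not so. Hoxd13 was 2.07, 2.11, 5.08 and 6.46 in M + LFD, the first 3 not well above background, and 11.38, 8.53, 5.35 and 9.49 in M + HFD. It was 4.28, 2.69 (not well above background), 10.90 and 4.32 in F + LFD and 5.72, 6.46, 10.84 and 5.21 in F + HFD. In F(OVX) + LFD it was 4.34, 10.87, 4.29 (not well above background) and 10.07, and in F(OVX) + HFD 4.95, 4.93 (not well above background), 4.29 (not well above background) and 5.73. Of the 6 arrays, M had 2, both HFD, F had 1 of each diet, and F(OVX) had 2, both LFD, so that neither M + LFD nor F(OVX) + HFD held any.

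Cdx2 was lowest on the same arrays. It was 10.77, 11.59, 9.52, 9.16, 11.10 and 10.81 on the 6 arrays in the order above, and the lowest value on any other array was 11.83, on M + HFD replicate 2, which also had the next highest Hoxd13. The paralog Cdx1 lay between 14.56 and 15.20 on all 24 arrays. The squamous keratin Krt5, at 14.61 on F + LFD replicate 3, was between 2.62 and 4.17 on the other 5 of these arrays. The mean of all 8 squamous markers was 5.93, 6.38, 9.84, 6.04, 5.51 and 6.64 on the 6 arrays in the order above. Its median over the 24 arrays was 5.68. The part of squamous cells in these Hoxd signals was not tested. The promoter windows of Hoxd13 and Hoxd12, which moved together, had 2 matches of TTTAT and ATAAA and none, and are printed in the same way. Hoxd9 and Hoxd10 had none, and Hoxd11 had 2 in one of its windows and none in the other.
Hoxd13 (chr2:74667975-74668224, plus strand): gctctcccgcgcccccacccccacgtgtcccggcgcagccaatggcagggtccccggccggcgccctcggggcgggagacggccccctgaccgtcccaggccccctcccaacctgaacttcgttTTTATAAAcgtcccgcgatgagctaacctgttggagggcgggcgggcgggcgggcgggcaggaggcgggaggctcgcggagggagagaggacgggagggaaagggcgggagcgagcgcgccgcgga
Hoxd12 (chr2:74674763-74675012, plus strand): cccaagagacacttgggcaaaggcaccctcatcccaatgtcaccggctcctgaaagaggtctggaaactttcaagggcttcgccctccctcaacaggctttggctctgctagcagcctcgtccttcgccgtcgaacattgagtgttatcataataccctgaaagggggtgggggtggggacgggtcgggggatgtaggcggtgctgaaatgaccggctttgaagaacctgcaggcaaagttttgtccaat

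**Figure D3:**
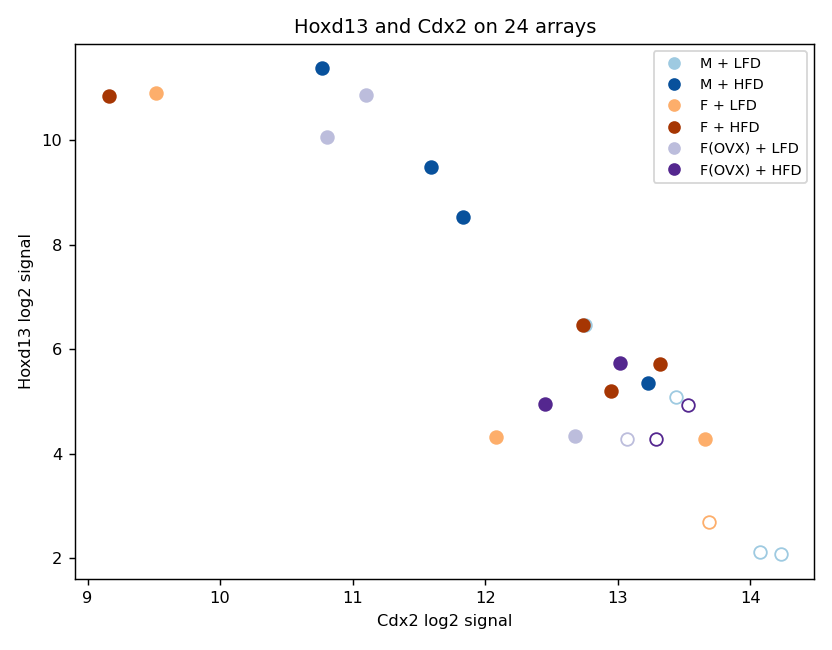
The log2 signal of Hoxd13 against that of Cdx2 on the 24 arrays, coloured by group, with open points where Hoxd13 was not well above background. The 6 arrays with Hoxd13 of 9.49 or more have Cdx2 between 9.16 and 11.59, and M + LFD replicates 1 and 2 are at the opposite corner.

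The first question was whether HFD changed Hox genes in M. Of the 19 Hox genes tested, 5 were called, which means a change of 1.5-fold or more with a limma p under 0.05 before adjustment, against 4.3% of the 20515 genes tested. None passed 0.05 after Benjamini-Hochberg adjustment over all genes, and the smallest limma adjusted p of a Hox gene was 0.801. At an unadjusted p under 0.05 there were 6, and over all genes the adjusted test also called 0. The median difference, HFD minus LFD, was 0.18 over the 19 and 0.01 over all genes. Of the 19, 12 passed the filter on dim probes in both groups and 7 through 1 group alone, so the count and the median are a description. Of those described here, Hoxd13 was called up and Hoxb6, Hoxb7 and Hoxb9 down.

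**Figure D4:**
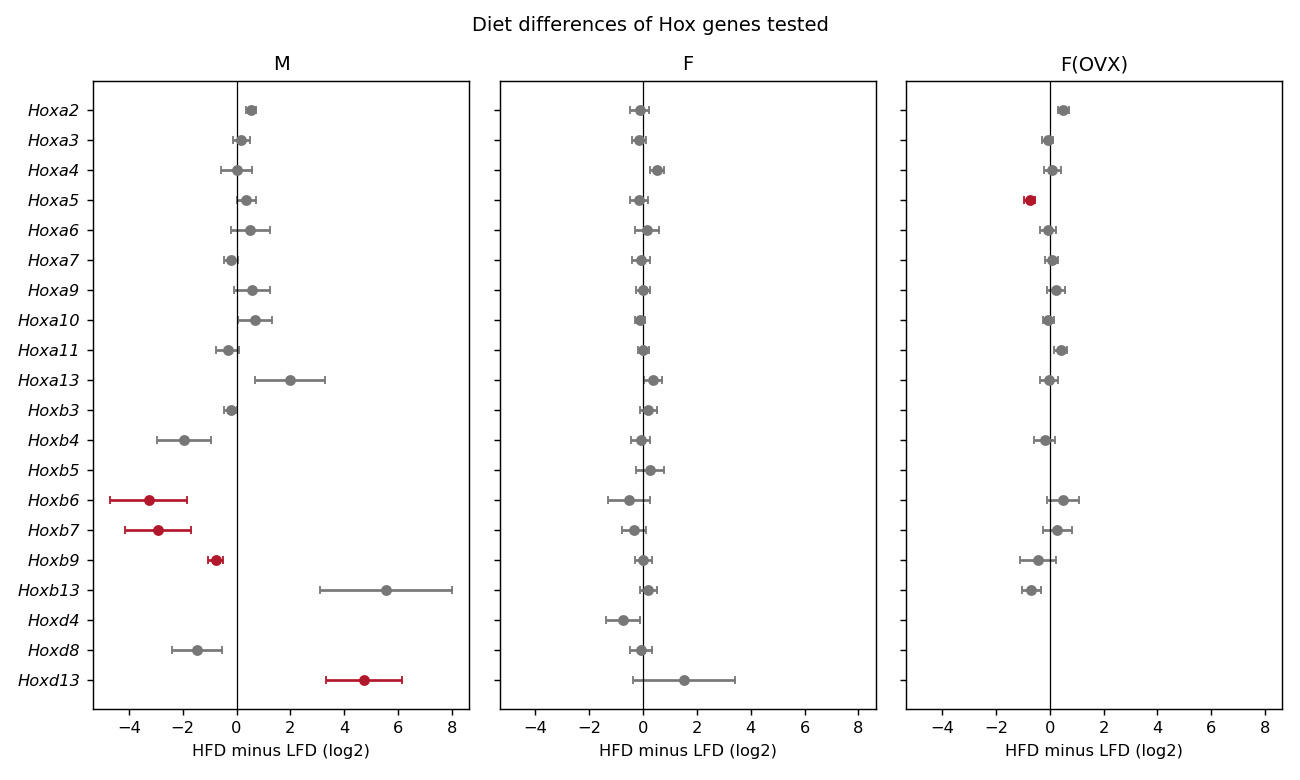
The difference between HFD and LFD (log2) of the Hox genes tested and described here, with its SE, in M, F and F(OVX), called genes in red. M has 4 called genes shown, F 0 and F(OVX) 1.

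Hoxd13 was 8.69 ± 2.52 in M + HFD and 3.93 ± 2.20 in M + LFD (mean ± SD, n = 4), a difference of 4.75 (SE 1.41, limma p = 0.00879, adjusted p = 0.801, exact permutation p = 0.0571). Its groups overlapped, at 5.35 in M + HFD and 6.46 in M + LFD. Hoxd13 entered the test through M + HFD alone, where it is high, and 3 of the 4 M + LFD signals are upper bounds, so its difference is a description of these signals and not a measured fold. Cdx2 was called down in the same comparison (difference −1.77, SE 0.53, limma adjusted p = 0.801), and without M + LFD replicates 1 and 2 it was not called (−1.24, SE 0.64, limma adjusted p = 0.944). Hoxb7 was 6.41 ± 0.38 in M + HFD and 9.33 ± 2.93 in M + LFD (difference −2.92, SE 1.24, limma adjusted p = 0.801, exact permutation p = 0.0286). That is the smallest p that the 70 assignments of 4 against 4 allow, and Hoxb7 was the one called Hox gene in M whose groups did not overlap. The margin was narrow, with a lowest M + LFD value of 6.68 and a highest M + HFD value of 6.67. The share of all genes whose groups did not overlap was not counted. Hoxb6 was 5.86 ± 0.65 against 9.14 ± 3.33 (difference −3.27, SE 1.43), with overlap. Hoxb6 entered the test through M + LFD alone, where it is high, with 1 of 4 M + HFD signals not well above background. When only probes well above background on all 24 arrays were tested, Hoxb7 and Hoxb9 were the Hox genes called in M, and Hoxb6 and Hoxd13 were not tested. Hoxb9 was 12.52, 12.24, 11.80 and 11.41 in M + LFD and 11.40, 10.97, 11.56 and 10.93 in M + HFD. Its difference was −0.78 (SE 0.27), and the groups overlapped. A second Hoxb9 probe had a difference of −0.61, and its signal correlated with that of the first at r = 0.38 over the 24 arrays. Hoxb13 was not called, at a difference of 5.56 (SE 2.45, limma p = 0.0507, exact permutation p = 0.0571) between 14.10 ± 0.61 in M + HFD and 8.53 ± 5.80 in M + LFD. The difference for Hoxa13 was 1.98 (SE 1.29). Both entered the test through M + HFD alone.

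These values rested on M + LFD replicates 1 and 2. Without both, none of the 5 was called. The difference of Hoxd13 was then 2.91, of Hoxb6 −0.45, of Hoxb7 −0.39 and of Hoxb9 −0.39, and that of Hoxb13 was 0.65. The 1 Hox gene called in that fit was Hoxa6, against 4.22% of all genes.

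**Figure D5:**
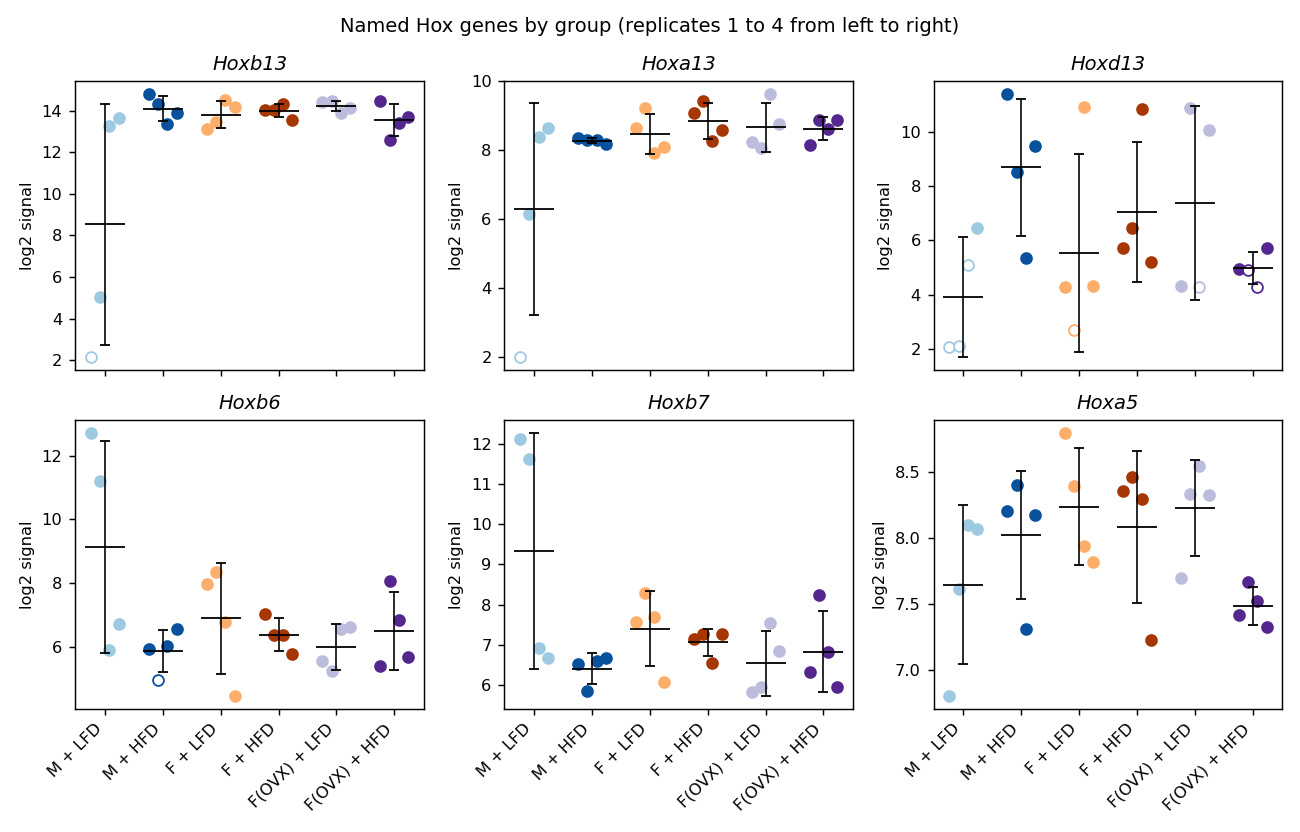
The log2 signal of 6 Hox genes on each array by group, with replicates 1 to 4 from left to right, black bars for the mean ± SD of 4 arrays and open points where the spot was not well above background. Hoxb13 and Hoxa13 are low and Hoxb6 and Hoxb7 high on M + LFD replicates 1 and 2, and Hoxa5 is lower in each F(OVX) + HFD array than in any F(OVX) + LFD array.

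In F, none of the 21 Hox genes tested was called, at an unadjusted p under 0.05 too, against 1.2% of the 22085 genes tested. The smallest limma adjusted p was 0.991. The differences ran from −0.74 for Hoxd4 (SE 0.64) to 1.51 for Hoxd13 (SE 1.90), and their median was −0.08, against 0 over all genes. Of the 21, 17 passed the filter on dim probes in both groups and 4 through 1 group alone, so these values are a description. Hoxd4 entered through F + LFD alone and Hoxd13 through F + HFD alone, each the group where it is higher. Hoxb13 was 13.99 ± 0.31 in F + HFD and 13.80 ± 0.64 in F + LFD, a difference of 0.19 (SE 0.32).

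In F(OVX), 1 of 16 Hox genes tested was called, Hoxa5, against 2.19% of the 19211 genes tested. The smallest limma adjusted p was 1, and 2 had an unadjusted p under 0.05. Hoxa5, a gene of lung and foregut mesenchyme development, was 7.70, 8.33, 8.54 and 8.32 in F(OVX) + LFD and 7.42, 7.67, 7.52 and 7.33 in F(OVX) + HFD. The groups did not overlap, and the difference was −0.74 (SE 0.20, limma p = 0.00462, adjusted p = 1, exact permutation p = 0.0286). How many of all genes had groups without overlap was not counted here either. In M the 4 LFD values of Hoxa5 were 6.81, 7.61, 8.10 and 8.07 and the HFD values 8.20, 8.40, 7.31 and 8.17, and in F they were 8.79, 8.39, 7.94 and 7.82 on LFD and 8.35, 8.46, 8.29 and 7.23 on HFD. Those groups overlapped, with differences of 0.37 (SE 0.34) in M and −0.15 (SE 0.32) in F. The other Hox gene with an unadjusted p under 0.05 was Hoxa2, whose difference of 0.51 (SE 0.22) was below the fold threshold. Of the 16 genes, 14 passed the filter on dim probes in both groups, Hoxa5 among them, and 2 through 1 group alone. In this comparison 4 of 8 smooth muscle markers were called up, for example Cnn1 (1.12) and Des (1.25), and their part in the Hoxa5 value was not tested.

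The diet effects of M, F and F(OVX) were compared in 1 fit of all 24 arrays. Between M and F, 1 of 21 Hox genes differed, against 2.95% of genes tested. This was Hoxb13, whose diet effect was 5.38 higher in M (SE 2.27, limma adjusted p = 0.975). Between M and F(OVX), 6 differed, against 6.16% of genes. The effect in M was higher than in F(OVX) for Hoxd13 (7.17, SE 2.55), Hoxb13 (6.26, SE 2.27) and Hoxa5 (1.11, SE 0.45), and lower for Hoxb6 (−3.77, SE 1.57), Hoxb7 (−3.20, SE 1.29) and Hoxd4 (−2.38, SE 1.08). The smallest limma adjusted p was 0.562. Hoxd13 was well above background on all 4 arrays only in M + HFD and F + HFD, where it is high. It was so on 1 array of M + LFD and 2 of F(OVX) + HFD. Hoxd4 was so on all 4 arrays only in F + LFD, a group outside the comparison of M with F(OVX). Hoxb13 was not well above background on M + LFD replicate 1, nor Hoxb6 on M + HFD replicate 2. The differences of Hoxd13, Hoxd4, Hoxb13 and Hoxb6 are a description of these signals and not measured folds. Between F(OVX) and F none was called, against 1.52% of genes, and none had an unadjusted p under 0.05. Without M + LFD replicates 1 and 2, Hoxb13 was not called between M and F (0.46). The 1 Hox gene called there was Hoxa4, against 3.17% of all genes. Of the 6 genes that differed between M and F(OVX), only Hoxb13 was then called (1.34).

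Hoxb13 was set against the 11 Hox genes detected on all 24 arrays, over the 22 arrays other than M + LFD replicates 1 and 2, which form a cluster of their own. Of the 11 relations, 5 had an adjusted permutation p under 0.05, all with genes that were lower where Hoxb13 was higher. The share of all genes related to Hoxb13 in this way was not counted, so the count describes these 11 genes only. The closest was Hoxa11, with Pearson r = −0.83 (permutation p = 1e-05, the smallest that 100000 resamples can give, adjusted p = 0.00011) and Spearman rho = −0.80 (permutation p = 3e-05). Without the 2 arrays farthest from the Hoxb13 median, F(OVX) + HFD replicate 2 and F + LFD replicate 1, r was −0.78. Hoxa9 had r = −0.68 (adjusted permutation p = 0.00313, rho = −0.73) and Hoxa10 r = −0.64 (adjusted permutation p = 0.00488, rho = −0.64). Hoxa7 had r = −0.50 (adjusted permutation p = 0.0352, rho = −0.49) and Hoxb7 r = −0.55 (adjusted permutation p = 0.0216, rho = −0.52). By rank, the adjusted permutation p was 0.0512 for Hoxa7, which did not pass 0.05, and 0.042 for Hoxb7. Leaving out the 2 farthest arrays gave r of −0.66, −0.54, −0.43 and −0.36 for Hoxa9, Hoxa10, Hoxa7 and Hoxb7. Within the slides, r for Hoxa11 was −0.93 over 6 arrays of M, −0.66 over 8 of F and −0.96 over 8 of F(OVX). The 6 with an adjusted p of 0.05 or more were Hoxa2, Hoxa3, Hoxa5, Hoxa6, Hoxb4 and Hoxb9, with r between −0.42 and 0.16. The arrays were normalized together.

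Genes around the Hox network were taken from lists and not from how they moved. Over all genes tested, 4.3% were called in M, 1.2% in F and 2.19% in F(OVX). With lists this short, the counts below are a description. Of the 9 cofactors, 8 were tested in each comparison and none was called. Their median difference was −0.13 in M, 0.06 in F and 0.01 in F(OVX). Meis1 and Meis2 ran from 6.27 to 9.68 and from 6.54 to 9.28 over the 24 arrays. Of 22 Hox regulators on the array, 18 were tested in M, 19 in F and 17 in F(OVX), and 1, 0 and 1 were called, all down. They were Cdx2 in M, and in F(OVX) Aldh1a3, an enzyme of retinoic acid synthesis (−1.76, SE 0.67, limma adjusted p = 1). The Polycomb and Trithorax genes were not among them. Of the cluster neighbours 6, 6 and 5 were tested and none was called, with Hottip at 2.20 (SE 1.07) and Hoxa11os at 2.19 (SE 1.18) in M. Of the gut region factors 6 were tested in each comparison, and Cdx2 in M was the only call.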

How the data were processed

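Total colon RNA from 24 mice was hybridized to 1-colour Agilent mouse arrays, 1 array per mouse, and the authors extracted spots with Agilent Feature Extraction 11.0.1.1. The authors deposited spot intensity values on a linear scale, background-subtracted and detrended, and flags of 0 or 1 for spots well above background, saturated or outlying. The array carries names of an older assembly, so gene symbols came from a GRCm38.p6 table (58.3% of probes) and no gene coordinates are given. Control spots were left out, and log2 processed signals were quantile-normalized over the 24 arrays. A gene entered a test when 1 of the groups compared had its brightest probe detected well above background on each of 4 arrays. Tests used limma 3.58.1 in R 4.3.3 (lmFit, eBayes) on the 8 arrays of each comparison, and 1 fit of all 24 for differences between diet effects, after a check on simulated data. A call meant a change of 1.5-fold or more with a p under 0.05 before adjustment, as in the study. Correlations used 100000 permutations, two-sided, and exact tests were two-sided over 70 assignments.

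Groups came from the labels. The values of 1 Hox gene are not reported here, and it stays in the counts. The Hox genes, other gene lists and tests were chosen with earlier results of these data known. Values on every array are given for genes called in a diet comparison, the 5 widest-ranging genes well above background on at least 12 arrays, and paralog group 13. Exceptions are Hoxb9, given in full for M alone, and Hoxc13, given by its median and single arrays. Same-numbered arrays of LFD and HFD, the column on the slide, deviated together in F (r = 0.28, 0.45, 0.58 and 0.26 for numbers 1 to 4), not in M (r = 0.01, −0.26, 0 and −0.03), and not for every number in F(OVX) (r = 0.33, −0.09, 0.32 and 0.25). Precision is limited by how many arrays there were. The alternatives tried were 75th percentile scaling, normexp background correction, other filters, the mean of probes, a replicate block, the methods' t-test, 1 fit of 24 arrays and leaving out arrays.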

Additional observations from a re-analysis of the deposited data

Results flagged for a closer look

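Some of the genes with values on every array were picked for a wide range over these arrays. Hoxc13 was well above background on 1 array only, so the count below is not set against chance. Among the genes with values on every array, 7 single arrays lay far from the other 3 of their group, over 60 groups. These were Hoxb7 in F + HFD replicate 3 (6.55, the others 7.15 to 7.27), Hoxb9 in F(OVX) + HFD replicate 3 (8.89, the others 11.79 to 11.90), Hoxa5 in F + HFD replicate 4 (7.23, the others 8.29 to 8.46) and Hoxb5 in F + LFD replicate 4 (4.25, the others 6.26 to 6.42). Hoxc13 stood alone in F + LFD replicate 4 (4.66, the others 2.15 to 2.24), F + HFD replicate 2 (4.07, the others 2.12 to 2.21) and F(OVX) + HFD replicate 2 (4.22, the others 1.99 to 2.16), the latter 2 not well above background.

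Diet effects that differed between groups by the interaction test were those of Hoxb13 in M minus F (5.38) and, in M minus F(OVX), of Hoxb13 (6.26), Hoxd13 (7.17), Hoxa5 (1.11), Hoxb6 (−3.77), Hoxb7 (−3.20) and Hoxd4 (−2.38), none past 0.05 after adjustment. Without M + LFD replicates 1 and 2, only Hoxb13 (1.34) of these was called in M minus F(OVX), where Hoxd13 was 5.33. In M minus F, Hoxb13 was then not called (0.46), and Hoxa4 was. The values of Hoxd13 and Hoxd4, and with all arrays those of Hoxb13 and Hoxb6, rest in part on signals not well above background. They are a description of these signals.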

How the results depend on the processing

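The number of called Hox genes moved with the settings in M and in the comparisons of M with the others. Among the genes with values on every array, no difference of a gene called in either setting changed sign. Signs were not compared in this way for the other Hox genes, and Hoxa6 did change sign. Its difference in M was 0.51 with all arrays. Without M + LFD replicates 1 and 2, where Hoxa6 was called, the M + LFD values left were 6.77 and 7.21. Both lay above the M + HFD mean of 6.16. Percentages in brackets are the share of all genes called in the same setting. In M, 5 of 19 Hox genes were called (4.3%). With no filter on dim probes 3 of 39 were (2.67%), and with probes well above background on all 24 arrays 2 of 11 (3.76%). A replicate block gave 3 of 19 (4.68%), the methods' t-test 2 of 19 (2.38%) and 1 fit of all 24 arrays 8 of 19 (5.1%). Without M + LFD replicates 1 and 2 together 1 of 19 was called (4.22%). Leaving out 1 array gave 2 to 10 (2.85% to 7.31%), the highest without M + LFD replicate 3 (10 of 22, 4.8%). In F the count of 0 of 21 became 1 without F + LFD replicate 2 (Hoxa4, 3.2%). It became 1 without replicate 3, the array with squamous keratins (Hoxd13, 2.17%), and 2 without replicate 4 (Hoxb6 and Hoxb7, 0.723%). The range leaving out 1 array was 0 to 2. With the replicate block that the numbers in F allow it was 0, while calls over all genes rose from 264 (1.2%) to 586 (2.65%). In F(OVX) Hoxa5 was called in all settings (−0.91 to −0.59). With 75th percentile scaling 2 of 16 genes were called (Hoxb13 added, 2.34%), and leaving out 1 array gave 1 to 3 (1.12% to 3.58%). Between M and F the count of 1 of 21 (2.95%) was 2 with 75th percentile scaling (3.09%), 2 with normexp (2.12%) and 3 with the replicate block (5.14%). It was 4 of 39 with no filter (2.31%) and 0 of 11 with probes detected on all 24 arrays (2.77%). Leaving out 1 array gave 0 to 9 (1.88% to 5.51%), and 0 without M + LFD replicate 1 or 2. Without both together it was 1, Hoxa4 (3.17%). Between M and F(OVX) the count of 6 of 21 (6.16%) was 2 of 11 with probes detected on all 24 arrays (6.09%). It was 1 of 21 without M + LFD replicates 1 and 2 (4.79%), 6 with the block (7.82%), and 3 to 11 leaving out 1 array (4.06% to 8.61%). Between F(OVX) and F it was 0 to 1 of 21 leaving out 1 array (0.872% to 2.45%). The 1 was Hoxd13 without F + LFD replicate 3, Hoxa2 without F + HFD replicate 2 and Hoxa5 without F + HFD replicate 4. Of the 5 relations of Hoxb13, 2 held with 75th percentile scaling, 0 within M, 0 within F and 1 within F(OVX), by exact permutation. Leaving out M + LFD replicates 1 and 2 for Cdx2 was chosen after seeing the data. The cause of each change was not tested. Over the named genes and all alternatives, 887 values kept their call, 46 lost it and 38 gained it. The scalings moved the median of all genes by at most 0.02. The share of called genes that were higher with HFD in F was 33.3%, and 25.2% with 75th percentile scaling and 21.2% with normexp. By the methods' t-test 489, 125 and 209 genes were called in M, F and F(OVX), against 882, 264 and 421.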
